A study of Mus musculus with 20 samples.

Results

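Keratins are the intermediate filament proteins of epithelia, and 10 keratin genes that mark the cell layers of the mouse airway were followed here: Krt4, Krt5, Krt6a, Krt8, Krt13, Krt14, Krt15, Krt17, Krt18 and Krt19. They were chosen by name. Every probe of the array that carries one of these names was used, which gave 12 probes for the 10 genes of 27670 gene names and 41174 probes in all, with 2 probes each for Krt8 and Krt13. Probes of the same gene are numbered by their mean brightness.

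The tissue was whole trachea of mice, and each of 20 RNA samples was hybridised to its own 1-colour Agilent whole mouse genome array. The wild-type samples were labelled C57/Bl6 and the others Myd88 KO, which lack the adaptor protein that most Toll-like receptors and the interleukin-1 receptor signal through. Uninjured mice (WT-control and KO-control) were compared with mice given 2% polidocanol, a detergent that strips the surface epithelium, and killed 3 days later (WT-injury and KO-injury), with 5 arrays in each group. The labels give an age of 4 months for all groups. According to the study's methods the knockout mice came from their own colony after backcrossing and the wild-type mice from a separate one, so colony and genotype cannot be told apart, and the replicates were biological.

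Keratin filaments are built from pairs of a type I and a type II chain. Basal cells, the progenitors that remain on the basement membrane after the surface is lost, carry Krt5 with Krt14 or Krt15. The secretory and ciliated cells above them carry Krt8 with Krt18 or Krt19. Krt4 and Krt13 pair in the upper layers of squamous linings such as the oesophagus and in small patches of stratified airway epithelium, and Krt6a and Krt17 are known from activated or wounded epithelia. A filament chain without its partner is degraded, which is why the partners are described together here.

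Levels are given on the log2 scale, as the spot's intensity minus the 75th percentile of its array, and a difference of 1 is a doubling of signal. In whole tissue, fewer cells of a type and less RNA per cell cannot be told apart. A probe was called changed when its Benjamini-Hochberg adjusted p in the limma fit across all 26064 tested probes was below 0.01. All 12 keratin probes were well above background on all 20 arrays and none was saturated. In the positions of the files, whose genome build is not stated, the probes of the type I genes other than Krt18 lay on chromosome 11 between 100228435 and 100365368, and those of the type II genes and Krt18 on chromosome 15 between 101676588 and 102018126.

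Some arrays stood apart from their groups. The array of WT-control replicate 3 carried genes of cornified squamous epithelium. Over the 8 tested genes of a list of 11 oesophageal and squamous genes, its mean level was 6.73 above the WT-control median, against -0.59 to 0.11 on the other WT-control arrays and -0.21 to 0.86 in KO-control. Loricrin (Lor) read 8.54 there and at most 0.12 on the other WT-control arrays, and Krt78 5.53 there and at most -2.13. KO-injury replicates 1 and 2 also had raised levels of this list, of 1.84 and 2.18, and WT-injury replicate 2 had 1.19. The array of KO-injury replicate 5 lay at the uninjured level of the proliferation list. It read -0.38 there, against 1.62 to 2.89 on the other KO-injury arrays and -0.74 to 0.24 in KO-control. For secretory genes it read 0.13, against -2.87 to -0.77 on the other KO-injury arrays, its Scgb1a1 spot having been left out as a scanner outlier. For the ciliated and myeloid lists it was not alone. Its levels there were 0.03 and -1.02, those of KO-injury replicate 1 were 1.16 and 0.30, and those of replicate 3 were -0.60 and -0.09. Results below are given with all arrays and, where they move, without WT-control replicate 3 and KO-injury replicate 5. Leaving out both together was added after the data were seen. KO-injury replicate 5 was picked for its lack of an injury response in other lists, so larger KO injury differences without it are partly built in. WT-control replicate 3 was picked for high squamous genes and also read high for Krt4, Krt5, Krt6a, Krt13 and Krt14. Larger wild-type injury differences of these chains without it are likewise partly built in. The Myd88 probe read 1.84 to 2.17 in WT-control and 1.48 to 1.93 in KO-control, which overlap, and 2.24 to 2.68 in WT-injury and 1.43 to 2.00 in KO-injury, which do not. Its place relative to the deleted stretch is not given in the sources used here, so it is no check of the genotype labels.

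**Figure D1:**
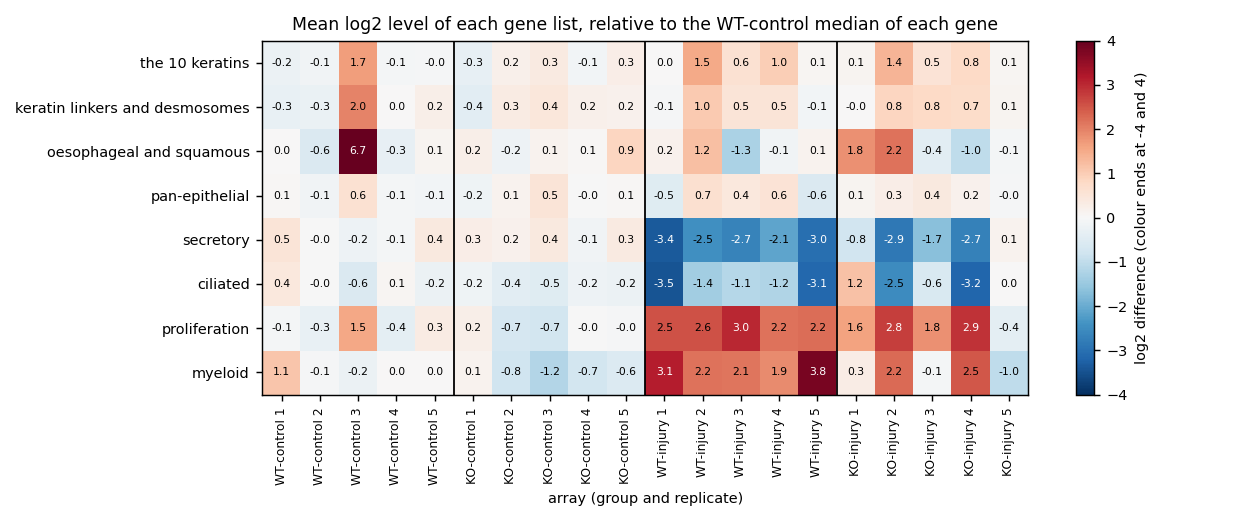
Mean log2 level of 8 gene lists on each of the 20 arrays, each gene relative to its WT-control median (rows are lists, columns are arrays, colour and digits give the log2 difference). WT-control 3 stands apart for the oesophageal and squamous list at 6.73. KO-injury 5 lies near 0 for the secretory and ciliated lists, and KO-injury 1 and 3 lie at 1.16 and -0.60 for the ciliated list.

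None of the 12 keratin probes was called after injury in wild-type trachea, where 5.23% of all probes were called, and none in the Myd88 KO, where 0.364% were. The KO share stood for 95 probes, and 6 to 111 were called with any other single array left out, but 1096 without KO-injury replicate 5. The share was then 4.21%, and 4.8% without WT-control replicate 3 as well, and under both settings 0 of 12 keratin probes were called. Krt8 and Krt19, chains of the luminal cells, had the lowest p values. At an unadjusted p under 0.05 there were 3 of 12 keratin probes in wild-type (both Krt8 probes and Krt19), where 26.5% of all probes passed, and 4 of 12 in the KO (the same 3 and Krt15), where 19.6% did. The difference was above 0 for 10 of 12 probes in each genotype, with medians of 0.32 in wild-type and 0.68 in the KO against -0.02 and -0.07 over all probes. Without WT-control replicate 3 and KO-injury replicate 5 the keratin medians were 0.84 in wild-type and 0.81 in the KO.

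**Figure D2:**
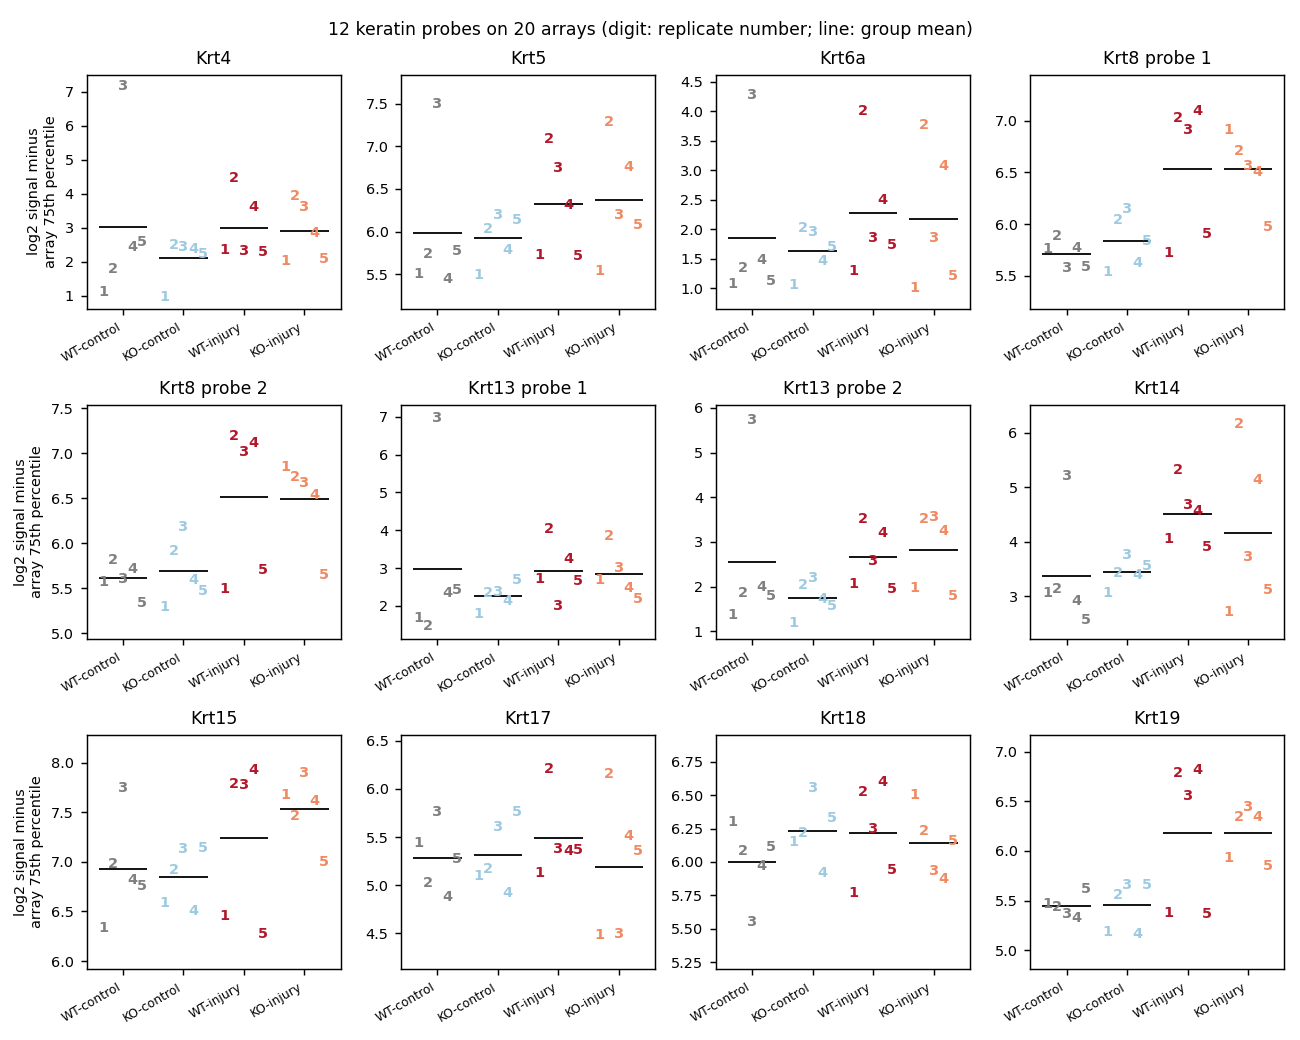
Level of each of the 12 keratin probes on the 20 arrays (y axis, log2 signal minus the 75th percentile of the array; digits are replicate numbers and lines are group means, with a separate scale in each panel). WT-control 3 lies far above its group for Krt4, Krt13 and Krt6a, and WT-injury 1 and 5 lie at the control level for Krt8, Krt15 and Krt19.

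Krt8, the type II chain of simple epithelia, was higher on most injured arrays. Probe 1 read 5.76, 5.88, 5.57, 5.77 and 5.58 in WT-control and 5.72, 7.03, 6.91, 7.10 and 5.90 in WT-injury, in order of replicate number. Replicates 2, 3 and 4 of the injured wild-type arrays lay above every control, and replicates 1 and 5 among the controls. The difference was 0.82 ± 0.25 (SE; 95% interval 0.30 to 1.34; limma adjusted p = 0.0352) for probe 1, 1.76-fold, and 0.90 ± 0.31 (adjusted p = 0.0678) for probe 2.

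In the KO, Krt8 probe 1 read 5.53, 6.04, 6.15, 5.62 and 5.84 without injury and 6.91, 6.71, 6.56, 6.50 and 5.97 with it. KO-injury replicates 1 to 4 were above all KO-control arrays and replicate 5 was not. The difference was 0.69 ± 0.25 for probe 1 (95% interval 0.17 to 1.21; limma adjusted p = 0.129) and 0.80 ± 0.31 for probe 2 (adjusted p = 0.165). It was positive on 5 of 5 slides for both probes, each slide holding 1 array of every group. In wild-type it was positive on 4 of 5 slides for both probes. Without KO-injury replicate 5 and WT-control replicate 3, the Krt8 probe 1 difference in the KO was 0.83 (adjusted p = 0.0391) and that of probe 2 1.01 (adjusted p = 0.042).

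Krt19, the type I chain of luminal cells that also has no tail domain, had like differences in the 2 genotypes, neither of which was called. Its levels were 5.47, 5.43, 5.36, 5.32 and 5.62 in WT-control and 5.37, 6.79, 6.55, 6.82 and 5.36 in WT-injury. In the KO they were 5.18, 5.56, 5.66, 5.16 and 5.66 without injury and 5.93, 6.34, 6.44, 6.34 and 5.85 with it. Within slides the Krt19 difference was above 0 on 3 of 5 in wild-type and on 5 of 5 in the KO. As for Krt8, WT-injury replicates 1 and 5 were at the control level, whereas in the KO all injured arrays lay above all uninjured ones. Krt19 in the KO was 1 of 12 keratin probes without overlap in that direction, and 1.21% of all probes were (2.32% in the other direction); in wild-type none of the 12 was free of overlap, against 7.55% of all probes above and 4.91% below. The difference was 0.74 ± 0.26 in wild-type (95% interval 0.20 to 1.28; limma adjusted p = 0.0689) and 0.74 ± 0.26 in the KO (95% interval 0.20 to 1.28; adjusted p = 0.122).

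Krt18, the type I partner of Krt8, had smaller differences than Krt8. It read 6.30, 6.08, 5.55, 5.97 and 6.11 in WT-control and 5.77, 6.52, 6.25, 6.60 and 5.94 in WT-injury, and the KO arrays ranged 5.92 to 6.55 without injury and 5.87 to 6.50 with it. The groups overlapped throughout. The difference was 0.21 ± 0.19 in wild-type (95% interval -0.17 to 0.60; limma adjusted p = 0.498) and -0.10 ± 0.19 in the KO (95% interval -0.48 to 0.29; adjusted p = 0.821).

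The partners were then compared within each array, which removes the scaling of the array. Krt18 minus Krt8 probe 1 ranged -0.02 to 0.54 in WT-control and -0.65 to 0.05 in WT-injury. It was lower after injury by a mean change of -0.60 ± 0.18 in wild-type (2-sided exact permutation p = 0.0238, n = 5 and 5) and of -0.79 ± 0.17 in the KO (exact p = 0.00794, the smallest that 5 against 5 allows). In the KO all 5 injured arrays lay below all uninjured ones, replicate 5 only just. With Krt8 probe 2, which was not tested in pairs, replicate 5 did not lie below all uninjured arrays. Krt18 and Krt8 probe 2 read 6.16 and 5.65 on it, and 6.22 and 5.92 on KO-control replicate 2. Adjusted over the 24 comparisons of 6 partner pairs, the p values were 0.191 and 0.0952, both above 0.05. Within slides, where each injured array was set against the uninjured one of the same slide, the change was below 0 on 5 of 5 slides in each genotype, at -0.70 to -0.49 in wild-type and -1.04 to -0.30 in the KO. The exact sign-flip permutation p over slides was 0.0625 in both, the smallest that 5 slides allow. Krt19 minus Krt8 changed by -0.08 ± 0.10 in wild-type (exact p = 0.476) and 0.04 ± 0.17 in the KO (exact p = 0.857).

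Krt8 and Krt18 are neighbours on mouse chromosome 15, and the 250 bases before the start of each are shown because their within-array difference had one of the lowest unadjusted p values of the 6 pairs. The sequences are from RefSeq on build GRCm38.p6, 5′ to 3′ along the gene, with matches to 5 motifs in capitals. The motifs, searched on both strands, were TATAAA (in 12.4% of the 32851 promoters of the table over the same length), the AP-1 motif TGANTCA (6.75%), the GC box GGGCGG (32.7%), CCAAT (33.8%) and the CACCC box (52%). Only the CACCC box was matched in the windows shown, so no matches of different motifs overlapped. The Krt8 window is chr15:102004343-102004592, minus strand, and the Krt18 window chr15:102027966-102028215, plus strand.
Krt8: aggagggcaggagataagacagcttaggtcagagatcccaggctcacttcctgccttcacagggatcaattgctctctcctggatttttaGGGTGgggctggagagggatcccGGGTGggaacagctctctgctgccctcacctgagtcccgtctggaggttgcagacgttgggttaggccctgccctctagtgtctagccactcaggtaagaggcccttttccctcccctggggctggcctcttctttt
Krt18: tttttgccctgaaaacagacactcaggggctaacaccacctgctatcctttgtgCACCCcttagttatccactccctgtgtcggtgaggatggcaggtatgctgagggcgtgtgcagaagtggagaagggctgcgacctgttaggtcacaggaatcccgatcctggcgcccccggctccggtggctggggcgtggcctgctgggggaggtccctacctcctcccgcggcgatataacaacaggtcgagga
Both windows held the CACCC box, with 2 matches for Krt8 and 1 for Krt18, and neither held the other 4 motifs.

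The Krt8 and Krt19 values of injured wild-type trachea were not alike on all slides, and other lists moved with them. The slides of replicates 2, 3 and 4 were scanned on one day and those of replicates 1 and 5 on another. On the first day the injury difference was 1.27 for Krt8 probe 1 and 1.35 for Krt19 (3 against 3 arrays), and on the second 0.14 and -0.18 (2 against 2). In the KO the values of the first and the second day were 0.65 and 0.75 for Krt8 probe 1 and 0.91 and 0.47 for Krt19. The difference between days was not tested. WT-injury replicates 1 and 5 also had the lowest means of the 10 pan-epithelial genes in that group, -0.48 and -0.58 against 0.43 to 0.65, and of the 9 ciliated genes, -3.46 and -3.15 against -1.40 to -1.14. They had the highest means of the 10 myeloid genes, 3.13 and 3.80 against 1.90 to 2.16. The part of these in the keratin levels was not tested. With scan day as a block, the adjusted p of Krt8 probe 1 in wild-type was 0.012 and that of Krt19 0.0274, and with the slide as a block 0.0232 and 0.0473, all in limma and all short of 0.01.

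Among the basal chains, Krt14, which is known to spread through basal cells during repair, had the largest difference of the 12 probes in wild-type. Its levels were 3.05, 3.14, 5.20, 2.91 and 2.57 in WT-control and 4.05, 5.31, 4.67, 4.56 and 3.91 in WT-injury. All injured arrays lay above 4 of the 5 controls, and the exception was WT-control replicate 3. The difference was 1.13 ± 0.55 (95% interval -0.02 to 2.28; limma adjusted p = 0.199). Without that array and KO-injury replicate 5 it was 1.58, and the adjusted p 0.0345 was still above 0.01.

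In the KO, Krt14 read 3.06, 3.43, 3.75, 3.38 and 3.56 without injury and 2.71, 6.16, 3.71, 5.13 and 3.11 with it. Only replicates 2 and 4 were above all KO-control arrays, and replicate 1 was below all of them. The difference was 0.73 ± 0.55 (limma adjusted p = 0.497). It was 1.48 on the first scan day and -0.40 on the second.

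Krt5, the type II partner of Krt14, read 5.51, 5.74, 7.49, 5.45 and 5.77 in WT-control and 5.73, 7.08, 6.75, 6.31 and 5.72 in WT-injury. The groups overlapped even apart from the third control, and the difference was 0.33 ± 0.38 (limma adjusted p = 0.624), or 0.70 without the 2 arrays (adjusted p = 0.151). In the KO it was 0.45 ± 0.38 (adjusted p = 0.553), with levels of 5.49 to 6.19 without injury and 5.54 to 7.28 with it.

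Krt15, the other type I chain of basal cells, ranged 6.33 to 7.74 in WT-control and 6.27 to 7.93 in WT-injury, with a difference of 0.32 ± 0.32 (limma adjusted p = 0.568). Its injured wild-type arrays fell into the same division as those of Krt8, with 7.78 to 7.93 on replicates 2, 3 and 4 and 6.45 and 6.27 on replicates 1 and 5. In the KO it read 6.59, 6.92, 7.13, 6.50 and 7.14 without injury and 7.67, 7.46, 7.90, 7.61 and 7.00 with it, a difference of 0.67 ± 0.32 (95% interval 0.01 to 1.34; adjusted p = 0.25). Only KO-injury replicate 5 was within the range of the uninjured arrays.

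Within arrays, the Krt14 minus Krt5 difference was less negative on every injured wild-type array than on any WT-control array. Krt14 minus Krt5 ranged -3.19 to -2.29 in WT-control and -2.08 to -1.68 in WT-injury, with no overlap. The mean change was 0.80 ± 0.17 (2-sided exact permutation p = 0.00794, the smallest that 5 against 5 allows). Adjusted over the 24 comparisons the permutation p was 0.0952, which did not pass, although no lower unadjusted value was possible. The third control array, which was high for both chains, lay at -2.29, the highest control, and without it the change was 0.88. Within slides it was above 0 on 5 of 5, at 0.21 to 1.38 (exact sign-flip permutation p = 0.0625). In the KO the change was 0.28 ± 0.36 (exact p = 0.468), with injured arrays on both sides of the uninjured ones. The change in the KO less that in wild-type was not tested. Krt15 minus Krt5 changed by -0.01 ± 0.27 in wild-type (exact p = 0.96) and 0.23 ± 0.35 in the KO (exact p = 0.548).

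The windows of the basal partners Krt5 and Krt14, which lie on different chromosomes, are shown for the same reason and in the same notation. The Krt5 window is chr15:101712906-101713155, minus strand, and the Krt14 window chr11:100206031-100206280, minus strand.
Krt5: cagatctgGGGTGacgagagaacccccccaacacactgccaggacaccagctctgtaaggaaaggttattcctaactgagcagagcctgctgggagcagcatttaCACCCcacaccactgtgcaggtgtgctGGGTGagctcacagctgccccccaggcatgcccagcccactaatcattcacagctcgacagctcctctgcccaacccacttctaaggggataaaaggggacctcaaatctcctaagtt
Krt14: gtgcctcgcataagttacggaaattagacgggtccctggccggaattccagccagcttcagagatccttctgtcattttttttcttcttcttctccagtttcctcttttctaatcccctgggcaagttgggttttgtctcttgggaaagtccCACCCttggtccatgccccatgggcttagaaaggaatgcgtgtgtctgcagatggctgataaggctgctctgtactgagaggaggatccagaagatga
The CACCC box was matched 3 times for Krt5 and 1 time for Krt14, and the other 4 motifs in neither window. Promoters of Krt13 were also in the table.

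For Krt4 and Krt13, 1 array stood far above the rest of the uninjured wild-type group. Krt4 read 1.13, 1.80, 7.16, 2.43 and 2.59 in WT-control and 2.35, 4.46, 2.33, 3.62 and 2.29 in WT-injury. The difference was -0.01 ± 0.81 (95% interval -1.71 to 1.68; limma adjusted p = 0.995) with all arrays and 1.02 (adjusted p = 0.178) without WT-control replicate 3 and KO-injury replicate 5. Krt13 probe 1 read 1.69, 1.48, 6.97, 2.33 and 2.42 in WT-control and 2.72, 4.04, 2.00, 3.24 and 2.67 in WT-injury. Its difference was -0.05 ± 0.72 (adjusted p = 0.977), and 0.95 (adjusted p = 0.0803) without the 2 arrays. Krt13 probe 2 went from 0.11 to 0.91 in the same way. The wild-type control array that moved these values is the one in which Lor and Krt78 were high, and the part of that squamous signal was not tested.

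In the KO, whose control group held no such array, both genes had higher means after injury, although neither was called. Krt4 read 0.98, 2.51, 2.45, 2.37 and 2.23 without injury and 2.03, 3.93, 3.61, 2.86 and 2.10 with it. Krt13 probe 2 read 1.18, 2.04, 2.18, 1.71 and 1.57 and 1.96, 3.51, 3.55, 3.25 and 1.78. Replicates 2, 3 and 4 carried the difference for Krt4 and Krt13 probe 2, and replicates 1 and 5 overlapped the controls. Krt13 probe 1 read 1.78, 2.33, 2.36, 2.14 and 2.69 without injury and 2.69, 3.85, 3.00, 2.46 and 2.18 with it. For that probe replicates 2 and 3 lay above all KO-control arrays and replicate 4 lay among them. The difference was 0.80 ± 0.81 for Krt4 (limma adjusted p = 0.631), 0.58 ± 0.72 for Krt13 probe 1 (0.707) and 1.07 ± 0.62 for Krt13 probe 2 (0.356). Without the 2 arrays and with scan day as a block, Krt13 probe 2 passed the threshold (1.21, adjusted p = 0.00173). Under that setting 8.18% of all probes were called. It was the only keratin probe to pass under any setting tried, this setting was chosen after the data were seen, and Krt13 probe 1 did not pass under it (adjusted p = 0.177). KO-injury replicates 1 and 2, whose squamous list was raised, were the lowest and the highest of that group for Krt4.

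Krt4 and Krt13 were also compared within arrays. Krt13 probe 1 minus Krt4 changed by -0.03 ± 0.24 with injury in wild-type (2-sided exact permutation p = 0.96) and -0.22 ± 0.30 in the KO (exact p = 0.468).

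Of the wound-associated chains, Krt6a was highest on WT-control replicate 3, at 4.27 against 1.08 to 1.48 on the other WT-control arrays. It read 1.29, 4.01, 1.86, 2.49 and 1.73 in WT-injury, where replicate 2 stood above the rest. The difference was 0.42 ± 0.62 (limma adjusted p = 0.719), and 1.02 without the 2 arrays (adjusted p = 0.197). In the KO it read 1.06, 2.03, 1.95, 1.46 and 1.70 without injury and 1.01, 3.76, 1.85, 3.07 and 1.21 with it, a difference of 0.54 ± 0.62 (adjusted p = 0.676) that rested on replicates 2 and 4. The sequence of the probe was not used here, so its match to the closely related Krt6b was not examined.

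Krt17, the type I chain often found with Krt6a, had small differences. It ranged 4.88 to 5.76 in WT-control, 5.13 to 6.21 in WT-injury, 4.92 to 5.76 in KO-control and 4.48 to 6.15 in KO-injury. Replicate 2 was the highest array of each injured group, as it was for Krt6a, Krt5 and Krt14. The difference was 0.21 ± 0.29 in wild-type (95% interval -0.40 to 0.82; limma adjusted p = 0.691) and -0.12 ± 0.29 in the KO (95% interval -0.73 to 0.49; adjusted p = 0.866).

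**Figure D3:**
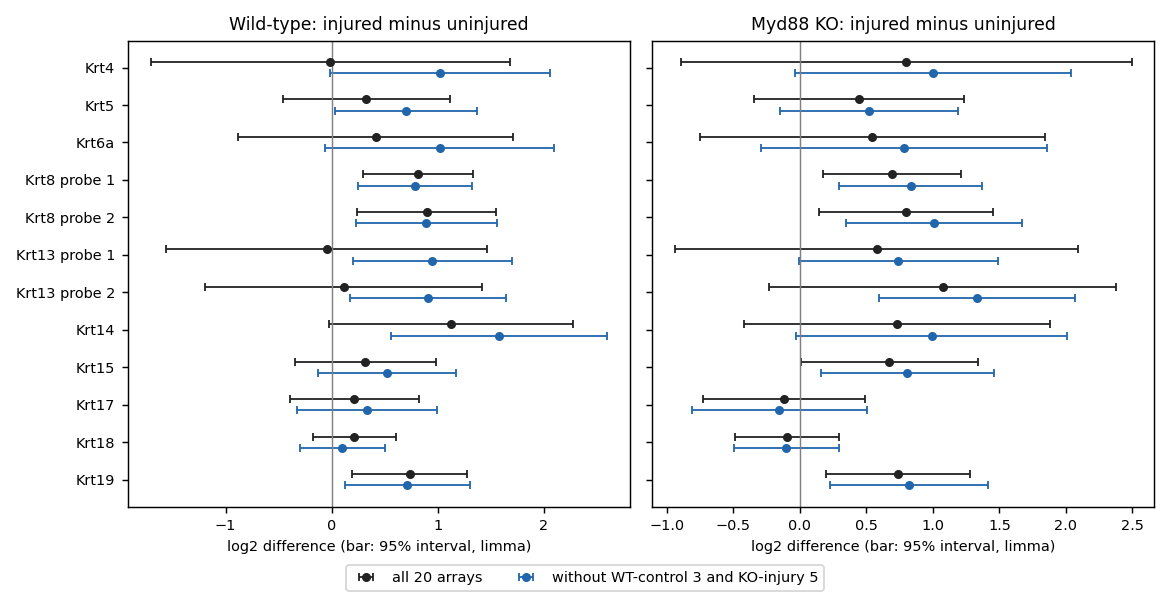
Injured minus uninjured log2 difference of each keratin probe in wild-type (left) and Myd88 KO (right), with 95% intervals from limma, for all 20 arrays and without WT-control 3 and KO-injury 5. Krt4 and Krt13 probe 1 in wild-type move from -0.01 and -0.05 to 1.02 and 0.95, and the intervals of Krt8 and Krt19 stay above 0.

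Between the genotypes, none of the 12 keratin probes was called in uninjured trachea (0.376% of all probes were), in injured trachea (0.38%) or for the difference between the injury responses (0%). None had an unadjusted p under 0.05 in any of these, where 5.57%, 12.5% and 10.2% of all probes did. In uninjured trachea the KO less wild-type difference ranged from -0.91 for Krt4 to 0.23 for Krt18, and the negative end rested on WT-control replicate 3: Krt4 was 0.12 without the 2 arrays. In injured trachea it ranged from -0.34 for Krt14 to 0.28 for Krt15, and the smallest adjusted p was 0.722.

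The intervals show what sizes of genotype difference the arrays leave possible, and they are not the limit of what would be called. For Krt8 probe 1 the 95% interval was -0.39 to 0.65 in uninjured trachea, -0.52 to 0.52 in injured trachea and -0.86 to 0.61 for the difference between the injury responses. For Krt19 the last was -0.76 to 0.76, and for Krt18 -0.86 to 0.24. For the chains that WT-control replicate 3 raised the intervals were wide, -1.58 to 3.21 for Krt4 and -2.02 to 1.23 for Krt14, so differences of several-fold in either direction lay within them. Without WT-control replicate 3 and KO-injury replicate 5 they were -1.49 to 1.45 and -2.03 to 0.85.

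Among 20 other epithelial keratins, 12 had a tested probe, with 15 probes in all. In wild-type injury 2 of the 12 genes rose and none fell, Krt7 and Krt20, and none of the 12 was called in the KO, beside 5.23% and 0.364% of all probes. Without KO-injury replicate 5, Krt20 was called in the KO too, beside 4.21%. Krt7 probe 1, a type II chain of simple epithelia like Krt8, read 5.55 to 6.04 in WT-control and 6.33 to 7.27 in WT-injury, with no overlap (1.11 ± 0.22, limma adjusted p = 0.00251). In the KO the Krt7 probe 1 difference was 0.72 ± 0.22 (adjusted p = 0.0698). Krt7 probe 2 gave 1.15 ± 0.36 in wild-type (adjusted p = 0.0389), which did not pass. Krt20, a type I chain known from the gut and urothelium, read -4.31 to -2.61 in WT-control and -1.20 to 0.42 in WT-injury (3.21 ± 0.75, adjusted p = 0.00833). In the KO the Krt20 difference was 2.46 ± 0.75 (adjusted p = 0.0749), with injured replicates 1 and 5 at -2.98 and -3.97, and 1 array of each KO group was not well above background. The lists of keratins and of other genes were drawn up with earlier results of these data known.

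The proteins that keratins attach to gave no call either. Of 14 tested genes for desmosomes and keratin linkers (31 probes) and 8 for hemidesmosomes and basement membrane (17 probes), none was called after injury in either genotype. Without both arrays that stood apart, 1 of the 14, Dst, a linker of keratins to the hemidesmosome, was called higher in the KO. Of all probes 4.8% were called under that setting. The hemidesmosome genes, which hold basal cells to their matrix, were higher after injury for 8 of 8 genes in wild-type (median difference 0.43) and 7 of 8 in the KO (0.30). The desmosome and linker genes had 8 of 14 differences above 0 in wild-type, with a median of 0.05, and 12 of 14 in the KO, with a median of 0.33. The wild-type median was 0.46 without WT-control replicate 3, where their mean was 1.99 above the WT-control median. The 10 pan-epithelial genes and the 7 basal identity genes likewise had no call in either genotype. In contrast, 4 of 7 secretory and 2 of 9 ciliated genes fell in wild-type injury, and 8 of 10 proliferation and 6 of 10 myeloid genes rose, where 5.23% of all probes were called. In the KO 2 of 7 secretory genes fell and none of the other 3 lists had a call, where 0.364% of all probes were called. Those KO counts moved with KO-injury replicate 5 as well. Without it 3 of 7 secretory genes fell, 9 of 10 proliferation and 3 of 10 myeloid genes rose and no ciliated gene was called, where 4.21% of all probes were called. Without WT-control replicate 3 instead, 2 of 10 proliferation genes rose in the KO, where 111 of 26064 probes were called.

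The genes most like 9 of the keratins were found as those with the smallest root mean square difference of centred log2 levels over the 20 arrays, with the brightest probe of each and no test. For Krt4 they were Sult2b1 (0.397), Vsig8 and Evpl, against a spread of Krt4 itself of 1.31. For Krt13 they were Psapl1 (0.325), Klk10 and Sult2b1, and for Krt6a Sfn (0.418), Dsg3 and Ecm1. For Krt14 the nearest was Psat1 (0.317), for Krt5 Gna15 (0.225) and for Krt15 Paqr8 (0.187). For Krt8 they were Rfwd3 (0.203), Cldn7 and Xrcc2, and for Krt19 Mboat1 (0.211), Dhrs13 and BC025446. The nearest to Krt18 was Cd320 (0.128), with a spread of Krt18 itself of 0.271. Sult2b1 was among the 3 nearest genes of both Krt4 and Krt13. WT-control replicate 3 was among the arrays used and read far above its group, at 7.16 for Krt4 and 6.97 for Krt13 probe 1. It weighs heavily on the likeness of these genes, which was not computed without it.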

How the data were processed

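Whole tracheal RNA of 20 mice was labelled with Cy3 and hybridised to 1-colour Agilent arrays. The authors deposited the scanner output, in which the intensity of each spot had been background-subtracted by Agilent Feature Extraction 9.5.1.1, and a value table with the same intensity rounded, which served as an alternative. The labels give 600 ng of RNA and an intratracheal route, and the study's methods differ on RNA amount, route and age. From the deposited intensity, log2 values minus the 75th percentile of each array were computed here, without control spots and outlier spots, and spots of a probe were averaged. Probes well above background on at least 10 of 20 arrays were tested (26064 of 41174). Array signal at the 75th percentile was 532.6 to 1036 and 57.54 to 67.8 percent of spots were well above background, and the number of arrays limits the precision.

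Groups and replicate numbers came from the sample titles. limma 3.58.1 in R 4.3.3 was fitted to 4 groups with 5 contrasts, and p values were adjusted by Benjamini-Hochberg within each contrast. Partner pairs were tested by 2-sided exact permutation with scipy 1.17.1, and within slides by exact sign flips. The limma step was tested on simulated data. The text covers all 12 keratin probes and counts of the other lists. The members and lists were chosen with earlier results of these data known. Same-numbered arrays shared a slide per the file headers, and their deviations from the group means correlated between -0.262 and 0.476, so slide and scan day were also fitted as blocks. Other alternatives were 6 further settings of filter, background, scaling and array weights, the fit of only the groups compared, the methods' one-way test and leaving out each array. Probe names come from accessions of the array's design, updated through RefSeq. Probe and protein sequences were not used here, and promoters of 5 of the 10 genes were in the table. The genes most like Krt17 are not reported here.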

Additional observations from a re-analysis of the deposited data

Results flagged for a closer look

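In groups of 5 arrays, 9 of the highest or lowest values of a keratin probe were farther from the rest than Dixon's 95% limit, over 48 probe and group combinations; chance flags about 1 in 20. WT-control replicate 3 accounted for 6 of them. It read 7.16 for Krt4 (other WT-control arrays 1.13 to 2.59), 7.49 for Krt5 (5.45 to 5.77), 4.27 for Krt6a (1.08 to 1.48), 6.97 for Krt13 probe 1 (1.48 to 2.42), 5.72 for Krt13 probe 2 (1.36 to 1.98) and 5.20 for Krt14 (2.57 to 3.14). The same array carried the squamous genes, and what set its keratin levels was not tested. KO-control replicate 1 was low for Krt4, at 0.98 against 2.23 to 2.51. KO-injury replicate 5 was low for Krt8 probe 2, at 5.65 against 6.54 to 6.85, and lay at the uninjured level of the proliferation and secretory lists. WT-injury replicate 2 was high for Krt17, at 6.21 against 5.13 to 5.38.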

How the results depend on the processing

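No keratin probe was called in any of the 5 contrasts under the alternatives of filter, background, scaling and fit (11 for each comparison of 2 groups and 9 for the difference between the injury responses) or with any of the 20 arrays left out. Fitting the replicate number (the slide) as a block changed no call, with 0 keratin probes called in each contrast. With both arrays that stand apart left out and scan day as a block, a setting added after seeing the data, 1 probe was called in the KO (Krt13 probe 2, 1.21). The cause was not tested. Krt4 in wild-type injury changed sign to 0.23 with array weights, 1.02 without both arrays and 0.93 with scan day as a block as well, and Krt13 probe 1 to 0.23, 0.95 and 0.93. Krt17 in the KO became 0.047 with array weights and Krt18 in the KO 0.039 with quantile normalization. Without both arrays, Krt19 minus Krt8 in the KO became -0.0129 and Krt17 minus Krt6a there -0.94 (exact permutation p = 0.0476). With an array left out, the injury difference in wild-type ranged from -0.49 to 1.02 for Krt4, -0.42 to 0.95 and -0.18 to 0.91 for Krt13 probes 1 and 2 and -0.017 to 1.02 for Krt6a, and in the KO from -0.36 to 0.0633 for Krt17. The partner changes ranged in wild-type from -0.15 to 0.12 for Krt13 minus Krt4, -0.69 to 0.0483 for Krt17 minus Krt6a and -0.19 to 0.10 for Krt15 minus Krt5, and in the KO from -0.0162 to 0.47 for Krt15 minus Krt5, -0.0154 to 0.20 for Krt19 minus Krt8 and -0.94 to -0.50 for Krt17 minus Krt6a. Of 24 partner comparisons 3 had an unadjusted exact p under 0.05, and 3 to 4 did with an array left out. Compared within slides (the replicate block, added after seeing the data), 0 did, as 5 slides allow no exact p below 0.0625. Under alternatives other than leaving out 1 array, genotype differences of the keratins changed sign in 20 of 156 values uninjured, 21 of 156 injured and 17 of 132 for the difference between the injury responses. The intervals in the text give the genotype differences that 5 arrays a group leave possible. They are not a detection limit, as a difference whose interval lies clear of 0 can still miss the 0.01 threshold.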
